A study of Danio rerio with 3 samples.

Results

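The embryonic globin genes hbae3 (ENSDARG00000079305), hbae1.2 (ENSDARG00000088330) and hbae1.3 (ENSDARG00000089124) and a β-spectrin row named SPTB (ENSDARG00000030490) were followed section by section through 3 zebrafish hearts. These 4 rows were named by identifier, out of 15833 genes that had at least 1 read in any heart. The hearts came from wild-type embryos of the Tupfel long fin strain at 2 days post fertilization and carried no other allele and no treatment. Each was dissected, straightened, frozen and cut into 10 µm sections along the path of the blood, and the RNA of each section was barcoded and sequenced on its own by CEL-seq, a method that tags and amplifies messenger RNA in a linear way (tomo-seq). All comparisons are therefore between regions of the same 3 hearts: the ventricle against the atrium, the atrioventricular (AV) canal against the chambers, and the outflow tract and the sinoatrial region each against the rest of the heart. Each heart is 1 animal, and a section is a slice through every cell type at that place, so the sections of 1 heart are not replicates.

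Globins are the protein chains of haemoglobin, which pairs α-type with β-type chains and carries oxygen in red cells. Zebrafish embryos make a first, primitive wave of red cells that circulates through the heart and uses embryonic globin genes, which are replaced by larval and adult ones later on. The genes hbae3, hbae1.2 and hbae1.3 encode embryonic α-type chains. They stand close together in a cluster of alternating α and β genes; in the RefSeq annotation of GRCz12tu hbae1.3 lies directly before hbae3, and hbae1.2 is separated from hbae1.3 by the β gene hbbe1.3. β-spectrin forms, with α-spectrin, the net under the membrane of red cells, and its loss causes anaemia in zebrafish. In mammals the same gene also makes a longer muscle form. Names in capitals, such as SPTB, are those of the human match in the name table.

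The hearts were read to different depths, and this sets what each can show. Gene reads came to 5889097, 5243516 and 2590278 in hearts 1, 2 and 3, over 40, 48 and 29 sections, and 7, 9 and 13 of these sections had fewer than 10000 reads. Values are given as raw reads and as reads per 10000 gene reads, with 95% Wilson limits where a single level or share is quoted. The sources do not say that molecular identifiers were counted, so several reads can stem from 1 molecule. Such limits, and the folds given below as at least a value, cover counting error only. Sections keep the authors' numbers. They run from outflow to inflow in heart 1 and from inflow to outflow in hearts 2 and 3.

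Globin reads were concentrated in a few sections of each heart, and these sections lay in a different place in each. The 3 globin rows together were read 6068, 2266 and 861 times in hearts 1, 2 and 3. In heart 1, ventricular section 16 and outflow section 8 held 94.4% of them. In heart 2, sections 74 and 70, both placed in the AV canal, held 72.9%, and in heart 3 sections 14 and 13, placed past the sinoatrial region at the inflow end, held 69.5%. These pairs took 9.90%, 2.09% and 9.99% of all gene reads of their hearts. The pairs were chosen by the globin reads themselves, so the excess there is a description and has no test. Section 74 also had the most reads of the atrial myosin myh6 in heart 2, 408 of 1945. The pair of heart 2 held 24.3% of the myh6 reads of that heart and 2.93% of those of the ventricular myosin vmhc. Whether this pair lies in the canal or in the atrium was not tested.

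**Figure D1:**
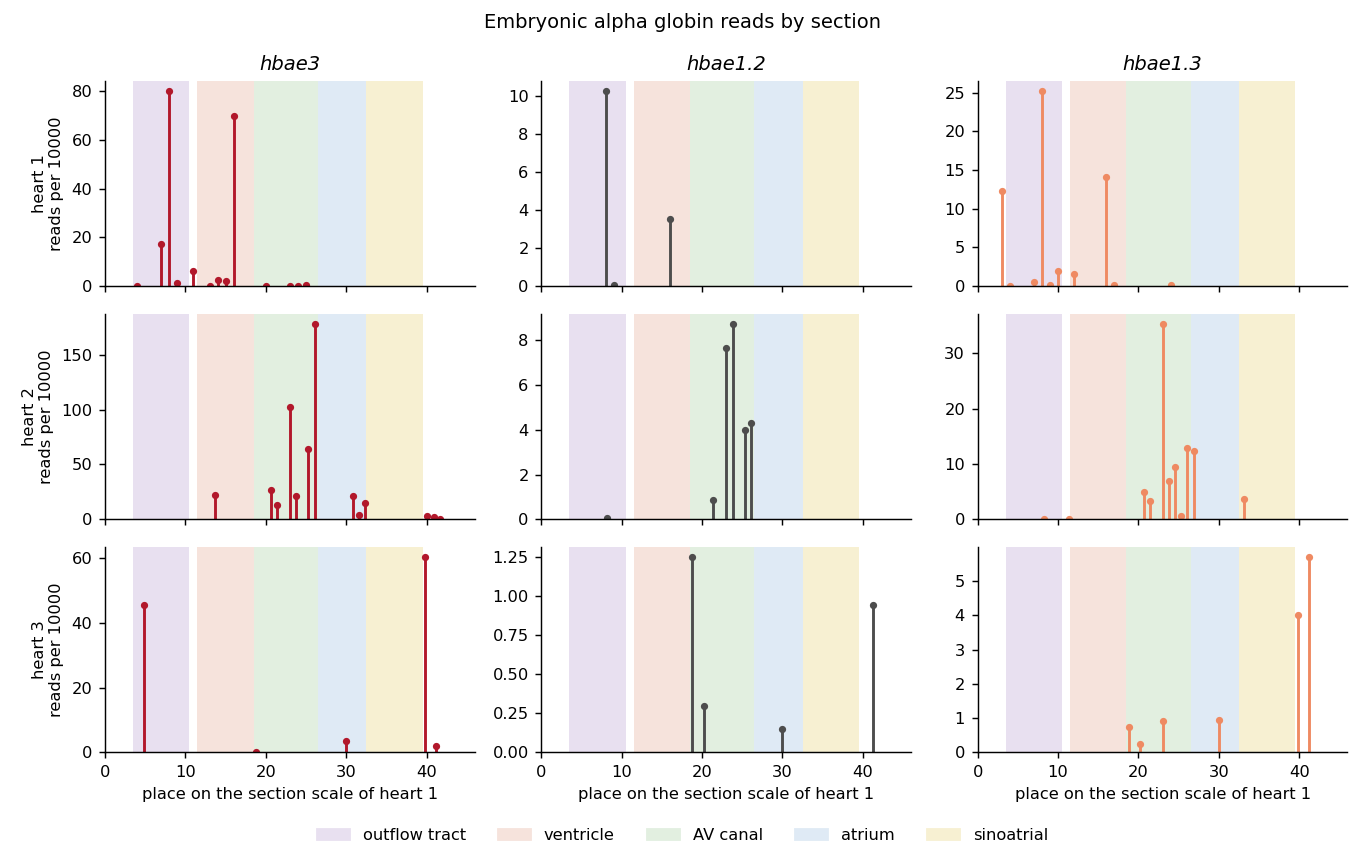
Reads per 10000 gene reads (vertical axis, scaled for each panel) of hbae3, hbae1.2 and hbae1.3 (columns) in hearts 1, 2 and 3 (rows), by section placed on the section scale of heart 1 from outflow to inflow (horizontal axis), with 1 point per section with reads and the regions shaded without overlap. The high points of hbae3 lie at sections 8 and 16 in heart 1, in the AV canal in heart 2, and in heart 3 past the sinoatrial region and at the outflow end, where section 39 held 16 reads.

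The globin hbae3 was the most abundant member in each of the 3 hearts. It gave 4586 reads in heart 1, or 7.79 per 10000 (7.57 to 8.02). Heart 2 gave 1670 reads, or 3.18 (3.04 to 3.34), and heart 3 gave 534 reads, or 2.06 (1.89 to 2.24). Reads were present in 13 of 40, 13 of 48 and 5 of 29 sections.

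In heart 1 hbae3 had 2502 reads in section 16 and 1798 in section 8, which are 69.8 and 80.02 per 10000. The sections next to these peaks were far lower, with 86 reads in section 7 and 61 in section 9, and with 61 in section 14 and 47 in section 15. None of the other sections exceeded the 21 reads of section 11, and the atrium had 0 reads, for which a floor of 3 reads allows up to 0.0368 per 10000. The 2 richest sections thus stood at 73.7 per 10000, against 0.539 over the other sections of heart 1, a ratio of 137.

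In heart 2 hbae3 was spread over more neighbouring sections. Section 74 had 1005 reads, section 70 had 207, section 76 had 136, section 71 had 113 and section 73 had 74. Per 10000 gene reads section 70 was the highest at 178, against 103 in section 74, because section 70 held only 11627 gene reads in all and section 74 held 97946. Of the 1670 reads, 93.6% lay in the AV canal, and 2 atrial sections, 64 and 62, added 34 and 20.

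In heart 3 hbae3 had a single main section, number 14, with 406 reads or 60.4 per 10000. Section 21, in the atrium, had 73 reads, and section 13 had 38. The 16 reads of section 39, at the outflow end, stood for 45.5 per 10000 because that section held 3513 gene reads. Of the sections of heart 3 placed in the AV canal, only section 29 had hbae3, with 1 read.

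The second globin, hbae1.2, was the least abundant, with 360, 134 and 87 reads in hearts 1, 2 and 3. In heart 1 it was almost confined to the sections rich in hbae3, with 231 reads in section 8, 127 in section 16 and 2 in section 9. In heart 2 it had 75 reads in section 74, 30 in section 73 and from 5 to 9 in sections 70, 71, 76 and 93. In heart 3 it went elsewhere: 45 reads in section 29, 21 in section 28 and 3 in section 21 lay in sections placed in the AV canal and atrium. Section 13 had 18, while section 14, the richest in hbae3, had 0 of its 87.

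The third globin, hbae1.3, gave 1122, 462 and 240 reads. Heart 1 had 567 in section 8 and 506 in section 16, which together made 95.6% of its reads, and heart 2 had 346 in section 74. Heart 3 had 109 in section 13, 41 in section 26, 27 each in sections 14 and 29, 19 in section 21 and 17 in section 28. In hearts 1 and 2 hbae1.3 shared the section with most reads with hbae1.2, and in heart 3 it did not. Per 10000 gene reads hbae1.2 of heart 2 was highest in section 73, at 8.72 against 7.66 in section 74.

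The 3 globin rows followed each other most closely in heart 1 and least in heart 3. Over the sections with at least 10000 gene reads (33, 39 and 16), the correlation of hbae3 with hbae1.3 was 0.96 in heart 1, 0.68 in heart 2 and 0.55 in heart 3. That of hbae3 with hbae1.2 was 0.91, 0.66 and -0.10. The points are sections of 1 heart, which share a library and differ in depth, and the rows are close copies that may share reads, so the coefficients are descriptions only.

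The make-up of the globin reads also differed between the sections of heart 3. Of the 16 globin rows named in the tables, 9 had reads: the 3 members, hbae1.1, hbae4 and hbae5 (further embryonic α genes), hbbe3 (an embryonic β gene) and 2 rows whose human match is the embryonic β globin HBE1. Together they gave 9764, 4716 and 1529 reads. The share of hbae3 was 47.0% (45.98 to 47.96) in heart 1, 35.4% (34.1 to 36.8) in heart 2 and 34.9% (32.6 to 37.3) in heart 3.

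Within heart 3, hbae3 made 82.7% of the globin reads of section 14 (79.1 to 85.8, 491 reads) and 12.4% of those of section 13 (9.18 to 16.6, 306 reads). The neighbouring section 13 held mostly other rows: 35.6% hbae1.3, 22.9% HBE1 (ENSDARG00000087390) and 18.6% hbae1.1. In heart 1 the share of hbae3 was 53.6% in section 16 and 41.8% in section 8, and in heart 2 it was 38.04% in section 74 and 41.5% in section 70. The share thus differed by more between the pair of sections in heart 3 than between those of hearts 1 and 2.

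**Figure D2:**
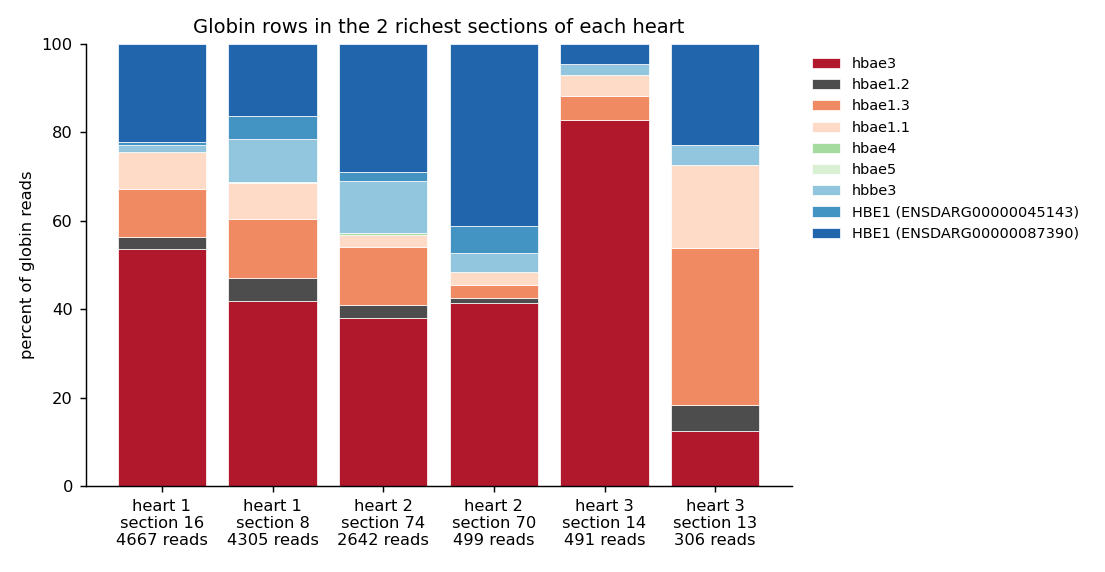
Share of each globin row (percent of all globin reads, vertical axis) in the 2 sections richest in the member globins of each heart, with the globin reads of the section under each bar. In heart 3 hbae3 makes 82.7% of the globin reads of section 14 and 12.4% of those of section 13.

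The most abundant partner was the β-type HBE1 row ENSDARG00000087390, with 1867, 1421 and 265 reads and 19.1%, 30.1% and 17.3% of the globin reads. By raw reads it was highest in section 16 of heart 1 and 74 of heart 2, which had the most member globin reads. In heart 3 it had 70 reads in each of sections 13 and 31. The β gene hbbe3 had 755, 770 and 120 reads, with most reads in section 8 in heart 1 and 74 in heart 2, but in section 31, in the ventricle, in heart 3. In heart 3 hbae1.1 had most reads in section 26, 158 of its 252. This was also the only section of heart 3 with reads of hbae4 (31). By raw reads the globin rows of heart 3 were thus highest in 5 different sections. Per 10000 gene reads hbae1.1 was highest in section 12, at 43.3 on 13 reads, and the HBE1 row in section 31, at 7.24.

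To see whether the globin-rich sections carried other red cell genes, the reads of these genes were counted in the same pairs of sections. In hearts 1 and 2 some red cell genes were read there and nowhere else, and others were not read there. The genes alas2 (the first enzyme of haem synthesis in red cells), cahz (the red cell carbonic anhydrase) and hemgn (a nuclear protein of blood cells), singled out after their values were seen, had few reads. In heart 1 all 59 reads of alas2, all 53 of cahz and all 30 of hemgn lay in sections 16 and 8. In heart 2 all 20 of alas2 and all 19 of cahz lay in section 74 alone, and the 34 of hemgn were 23 in section 74 and 11 in section 70. All 19 reads of gata1a, the master transcription factor of red cells, also lay in section 74, and hearts 1 and 3 had 0. Several reads can stem from 1 molecule, so such counts in 1 section may stand for fewer molecules. Heart 3 had 0 reads of alas2, cahz and hemgn, with 2590278 gene reads in all. In heart 2 other red cell transcription factors had 0 reads in the pair: klf17, with 43 reads in that heart, klf1, with 9, and NFE2, with 8. These 3 and gata1a were also named after their values were seen.

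Such confinement was uncommon among genes at large, which were not matched to the red cell genes in their number of reads. With a minimum of 15 reads, 64 of 9827 genes (0.651%) had all of their reads in the pair of heart 1, 24 of 10843 (0.221%) in that of heart 2 and 266 of 7464 (3.56%) in that of heart 3. Of the red cell genes, without the globins and SPTB, it was 3 of 19, 4 of 20 and 0 of 13. Those with a larger share in the pair than the share of all gene reads were 10 of 19, 10 of 20 and 4 of 13, beside 33.98%, 16.5% and 26.6% of all genes. Those with no read in the pair were 7 of 19, 8 of 20 and 8 of 13, beside 42.1%, 77.9% and 66.01% of all genes. A gene with few reads is more easily confined to 2 sections, so the shares of all genes are not those of genes read as rarely. The list was chosen with earlier results known, and these counts carry no test.

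The 4 red cell genes with the most reads, globins and SPTB aside, were read mainly outside these sections, as were gene reads at large. The ferritin gene fth1a, which stores iron in many cell types, had 406 of 2713, 58 of 1445 and 203 of 1154 reads in the globin-rich pairs, which is 14.97%, 4.01% and 17.6% and above the share of all gene reads in each heart. RHAG, a partner of the Rhesus proteins, had 251 of 1570, 0 of 951 and 69 of 629. NT5C3A, a nucleotidase, had 62 of 716, 3 of 227 and 0 of 799, and GLRX5, needed for iron-sulphur clusters, had 89 of 460, 0 of 289 and 31 of 575. In heart 1 RHAG and GLRX5 were also above that share, at 16.0% and 19.3%. In heart 3 RHAG was slightly above it, at 11.0% (8.76 to 13.7) against 9.99%. Of 3 further genes, chosen after their values were seen, 1 is the anion exchanger of the red cell membrane, SLC4A1 (ENSDARG00000012881), of which 42 of 61 reads lay in the pair of heart 1 but 0 of 11 in that of heart 2. In heart 3 section 13 alone held 79 of the 96 reads of slc11a2, an iron transporter, and 126 of the 252 of TAL1, a factor of blood and endothelial precursors.

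**Figure D3:**
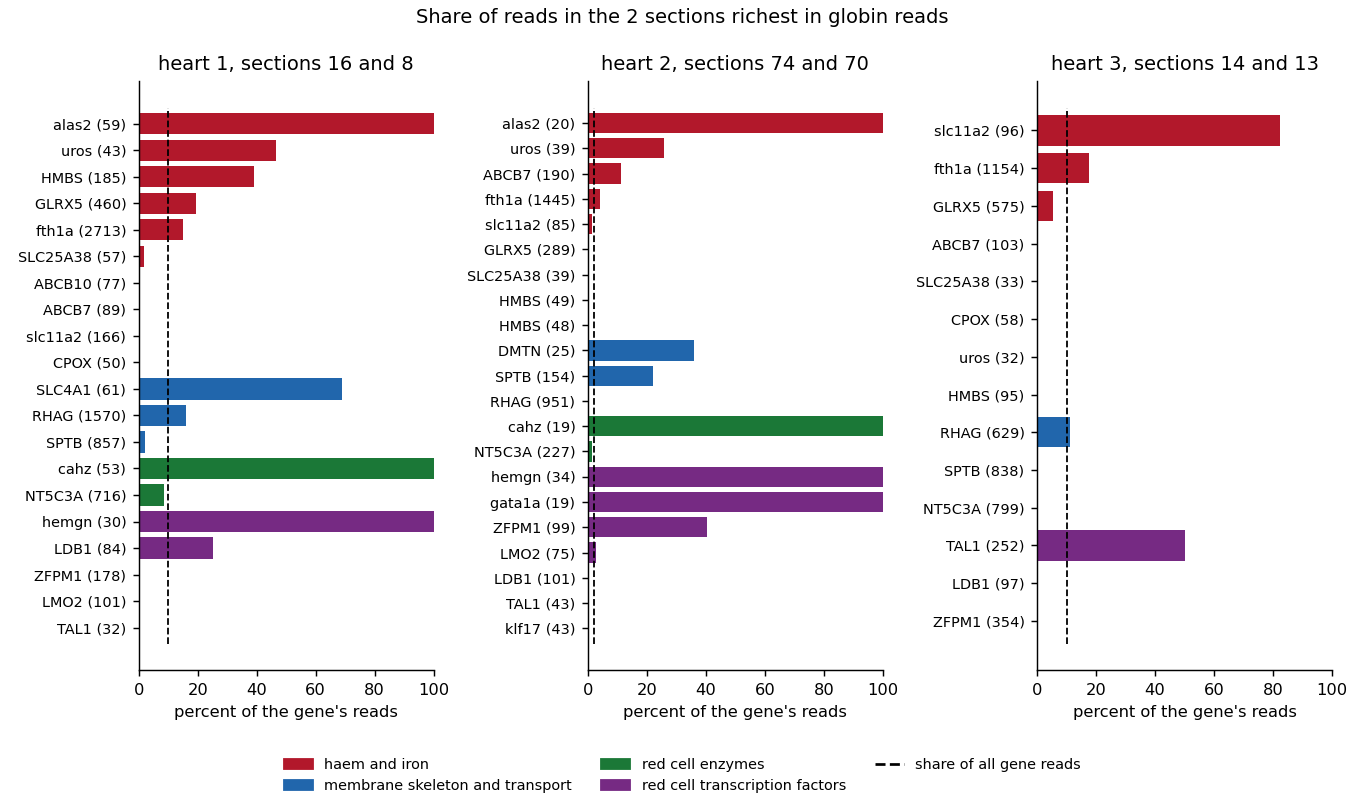
Percent of each gene's reads that lay in the 2 sections richest in the member globins (horizontal axis) for red cell genes other than globins with at least 15 reads in a heart, 1 panel per heart, with the gene's reads in brackets; the dashed line is the share of all gene reads. In hearts 1 and 2 alas2, cahz and hemgn stand at 100%, and SPTB stands at 2.22%, 22.1% and 0% in hearts 1, 2 and 3.

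Muscle, endothelial, thrombocyte and skin markers were higher in these sections in some hearts and lower in others, while the summed markers of white blood cells were lower in all 3. The 9 cardiac muscle markers read summed to 203 per 10000 in the globin-rich pair and 235 elsewhere in heart 1, to 384 and 57.97 in heart 2, and to 9.39 and 473 in heart 3. The 5 endothelial and endocardial markers summed to 2.62 and 4.37, 2.01 and 3.02, and 34.6 and 7.90. In heart 3 the globin-rich pair was thus nearly without heart muscle reads, and its endothelial sum was mostly 1 gene. Of its 896 endothelial reads 735 were of cdh5, which had 697 in section 13. TIE1 had 110 of 186 reads in the pair, tek 21 of 21 and FLI1 only 30 of 456. These 4 were named after their values were seen. The 3 thrombocyte markers summed to 0.514 per 10000 in the pair and 0.684 elsewhere in heart 1, to 1.83 and 0.573 in heart 2, and to 2.51 and 0.330 in heart 3. The 8 neutrophil and macrophage markers summed to less in the pair in each heart, at 0.103 and 10.7, 0 and 1.74, and 0 and 0.665. These sums were mostly 1 gene: lyz had 4905 of the 5657 reads in heart 1 and 781 of 892 in heart 2. In heart 3 the MFAP4 row ENSDARG00000088745 had 124 of 155, all in section 28. Both were named after their values were seen. The 10 skin markers summed to 0.257 in the pair and 0.219 elsewhere in heart 1, to 0.639 and 38.8 in heart 2, and to 4.29 and 2.95 in heart 3. The part of these cell types in the globin values was not tested, and in such bulk sections fewer red cells and less globin RNA per red cell cannot be told apart.

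SPTB did not follow the summed globins in hearts 1 and 3, so the 4 rows did not behave as 1 set of blood genes there. In heart 3 hbae3 and hbae1.2 did not follow each other either (-0.10). In heart 2 the correlation of SPTB with hbae3, 0.61, was near those of hbae3 with hbae1.3 and hbae1.2 (0.68 and 0.66). Hearts 1, 2 and 3 gave 857, 154 and 838 reads of SPTB, or 1.46 (1.36 to 1.56), 0.294 (0.251 to 0.344) and 3.24 (3.02 to 3.46) per 10000. Its reads were spread over 22, 14 and 8 sections, and its highest section held 17.4%, 16.9% and 28.04% of them. For hbae3 the highest section held 54.6%, 60.2% and 76.03%.

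In heart 1 SPTB had 149 reads in section 22, 101 in section 17, 90 in section 19, 76 in section 13, 67 in section 20 and 63 in section 36. These run from the ventricle through the AV canal to the sinoatrial region. Section 16 had 19 and section 8 had 0, so that 2.22% of its reads (1.42 to 3.44) lay in the pair that held 94.4% of the member globin reads.

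In heart 3 SPTB had 235 reads in section 28, 147 in section 21, 130 in section 29, 119 in section 26 and 103 in section 20. These were all placed in the AV canal and atrium, and 54 and 49 reads followed in sections 30 and 31 of the ventricle. Section 28 held the most gene reads of heart 3, 711407, and also the most vmhc reads, 10114 of 20310. Whether it lies in the canal or in the ventricle was not tested. Sections 14 and 13 had 0 of its 838 reads, and a count of 0 allows a share of up to 0.358%. With 258666 gene reads in that pair, SPTB was at least 30.99-fold lower there than in the other sections, at under 0.116 against 3.59 per 10000. The cardiac muscle markers were also lower in this pair, at 9.39 against 473 per 10000 elsewhere, and their part in the SPTB value was not tested.

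Heart 2 was the exception. Section 74, with the most raw reads of the member globins, also had the most SPTB reads, 26 of 154, and the pair held 22.1% of them (16.3 to 29.3). The level of SPTB in the pair was 3.10 per 10000, against 0.234 over the other sections, a ratio of 13.3. Those other sections held 5133943 gene reads, 2895368 of them in the outflow tract and 1093622 between it and the ventricle. SPTB had 0 reads in both of these parts, which lowers the level over the other sections. Over all sections placed in the AV canal, the pair included, SPTB stood at 2.06 per 10000. The cardiac muscle markers were at 384 per 10000 in the same pair, against 57.97 elsewhere, and their part in this value was not tested. Elsewhere in heart 2 SPTB had 16 reads in section 53, 14 in section 85 and 12 in section 56.

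**Figure D4:**
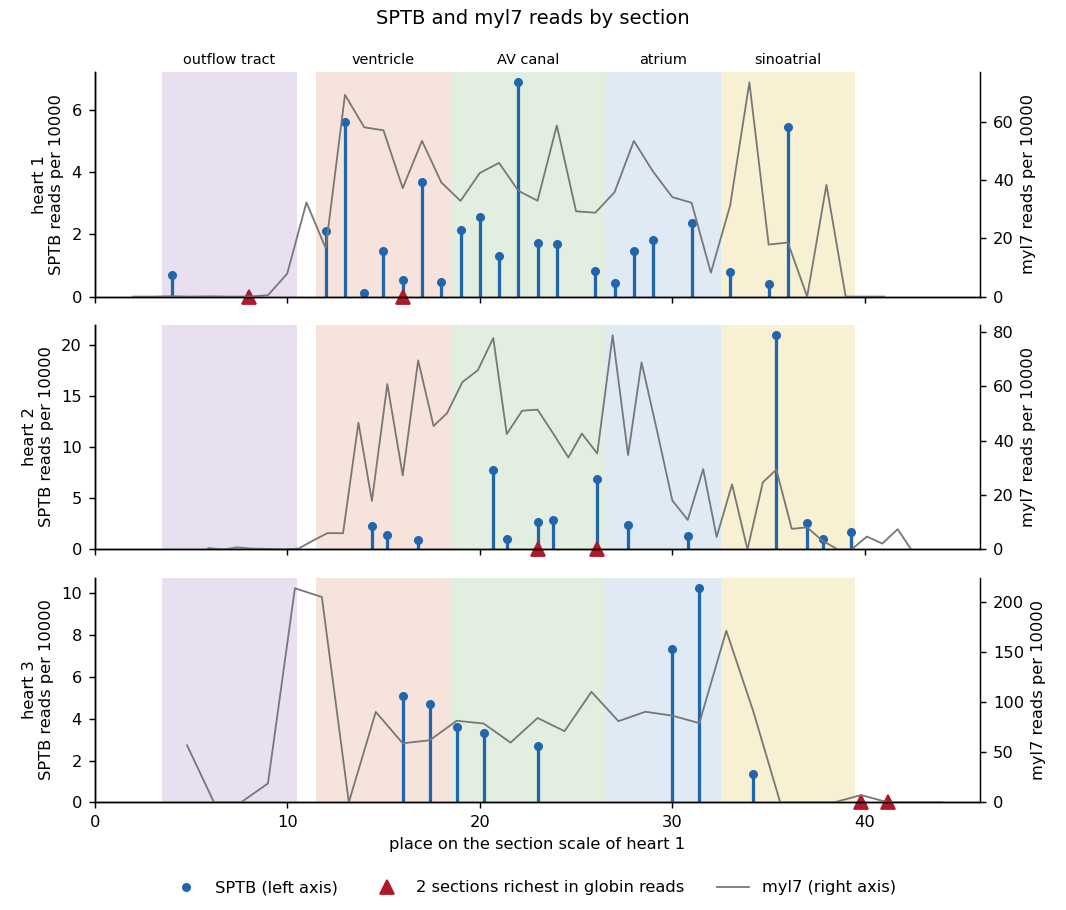
Reads per 10000 gene reads of SPTB (points, left axis) and of the heart muscle gene myl7 (line, right axis) by section placed on the section scale of heart 1 (horizontal axis), 1 panel per heart; triangles mark the 2 sections richest in globins, and regions are shaded without overlap. SPTB is spread from ventricle to sinoatrial region in hearts 1 and 2, and has 0 reads in the globin-rich sections of heart 3.

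Over the sections with at least 10000 gene reads, SPTB had a correlation of -0.19 with the summed member globins in heart 1, 0.61 in heart 2 and -0.18 in heart 3. With myl7, the myosin light chain of heart muscle, it had 0.34, 0.42 and 0.11. With the ventricular myosin vmhc it had 0.07, 0.24 and 0.08 and with the atrial myosin myh6 -0.11, 0.07 and 0.26. The highest of them, 0.61, is that with the globins in heart 2, where section 74 had the most raw reads of both. Per 10000, the scale of the coefficients, section 70 was higher in both. The summed globins stood at 195 there against 146 in section 74, and SPTB at 6.88, on 8 reads, against 2.65. SPTB was highest in section 77, at 7.76 on 8 reads. The coefficients come from sparse counts, and their points share the depth of the sections.

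Genes were then ranked by how closely their section profile followed the summed member globins, by the lowest of the 3 per-heart correlations, among 3795 genes with at least 50 reads in each heart. The first was hbae1.1 (1.00, 0.92 and 0.63 in hearts 1, 2 and 3), and HBE1 (0.99, 0.96 and 0.33) and hbbe3 (0.81, 0.43 and 0.26) were 4 and 6 in the order. Between and after them came ahr2, the aryl hydrocarbon receptor, with 0.60, 0.59 and 0.99, GRB10, an adaptor of growth factor receptors, with 0.34, 0.73 and 0.71, CCT6B, ube2d2, rbms2a, ENSDARG00000016744 and HNRNPAB, for which the lowest coefficient was from 0.22 to 0.32. SPTB had rank 3473 of 3795.

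The same ranking against SPTB gave TWF2, an actin-binding protein, first (0.50, 0.62 and 0.74, among 3797 genes), followed by ube2ib and CSNK1D. Further down its first 10 were cmlc1, a light chain of heart muscle myosin (0.33, 0.38 and 0.46), ATP1B1 (0.33, 0.64 and 0.35), the muscle myosin heavy chain gene myh7bb (0.31, 0.45 and 0.54) and KLHL31, a muscle protein (0.28, 0.36 and 0.53). These names were chosen after the ranking was seen, and no globin was among them: hbae3 had rank 2954.

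Levels by region were then compared over the 3 hearts, with the heart as the unit and as a block. The myosin genes vmhc and myh6 fixed where hearts 2 and 3 lie along heart 1. On its section scale the outflow tract is sections 4 to 10, the ventricle 12 to 22, the AV canal 19 to 26, the atrium 27 to 37 and the sinoatrial region 33 to 39. The ventricle and AV canal windows share sections 19 to 22, and the atrium and sinoatrial windows share sections 33 to 37. Only in the comparison of the AV canal with the chambers is the ventricle cut to 12 to 18, so that the chambers are 12 to 18 and 27 to 37. The calls are from a quasi-likelihood test on the counts over all genes, with an adjusted p under 0.05.

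**Figure D5:**
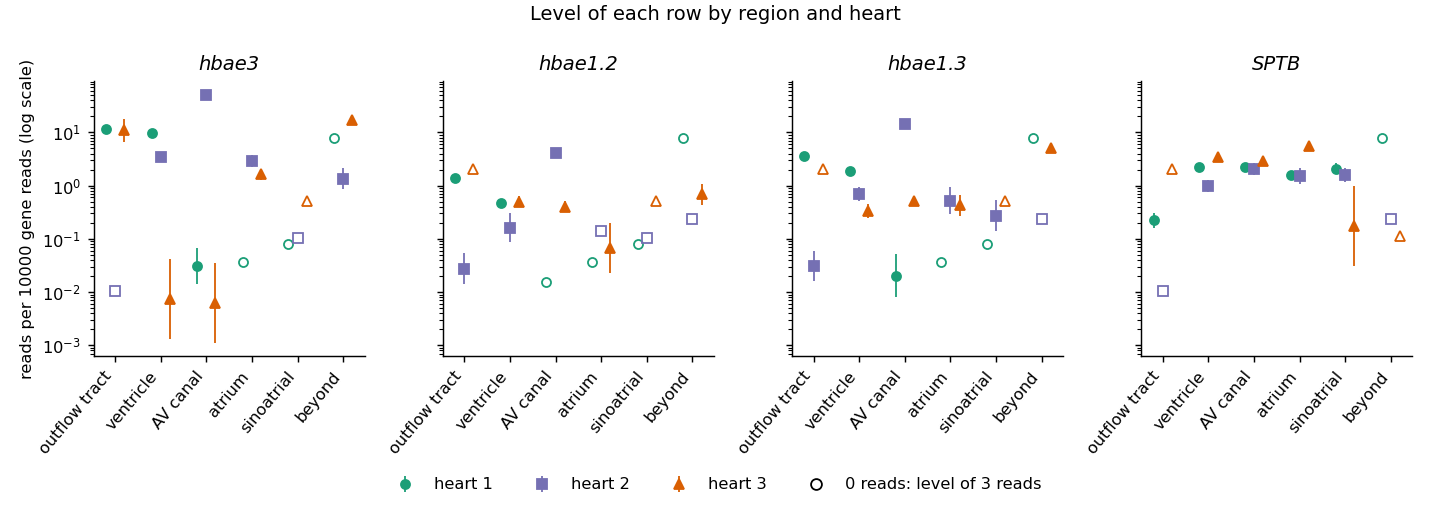
Reads per 10000 gene reads (log axis) of hbae3, hbae1.2, hbae1.3 and SPTB in each region and in the sections beyond the sinoatrial region, with 1 point per heart and bars for 95% Wilson limits; an open symbol marks 0 reads and stands at the level of 3 reads. Levels of hbae3 in the AV canal run from 0.00612 to 51.2, while SPTB in the ventricle, AV canal and atrium lies between 0.974 and 5.61.

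Between ventricle and atrium none of the 3 globins was called, where 0.853% of all genes tested were. The hearts ran in opposite directions for hbae3 and hbae1.3. With 3 hearts, the lack of a call does not show that the levels were equal. The level of hbae3 was 9.60, 3.46 and 0.00749 per 10000 in the ventricle of hearts 1, 2 and 3, against 0, 2.91 and 1.63 in the atrium, so that heart 3 ran opposite to heart 1. The fitted difference was 0.76 ± 0.58 on the log2 scale (SE of the fit, n = 3, adjusted p = 1.0), beside a median of 0.56 over all genes. Such an SE, here and below, comes from the fitted model and does not measure how far the hearts lay apart. Without heart 3 it was 4.90 (adjusted p = 0.00122) and without heart 1 it was -2.83 (adjusted p = 1.0). With the sections of heart 1 as samples, which are not replicates, hbae3 and hbae1.3 gave 9.78 and 7.55 (adjusted p = 1.39e-13 and 0.00067). For hbae1.2 the levels were 0.466, 0.162 and 0.494 in the ventricle, against 0, 0 and 0.0671 in the atrium (log2 difference 5.03 ± 2.99, adjusted p = 1.0). Of these ventricle reads the 9 of heart 2 and the 66 of heart 3 lie in sections that the ventricle window shares with the AV canal and that count in both comparisons. The ventricle without them had 0 reads of hbae1.2 and of hbae1.3 in hearts 2 and 3, and of hbae3 it had 28 and 0. In heart 1 the level is at least 12.7-fold higher in the ventricle, and in heart 2, with 9 reads against 0, at least 1.16-fold. The levels of hbae1.3 were 1.90, 0.704 and 0.330 in the ventricle, against 0, 0.516 and 0.425 in the atrium (log2 difference 2.08 ± 1.19, adjusted p = 1.0), so heart 3 again ran the other way.

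SPTB stood at 2.23, 0.974 and 3.51 per 10000 in the ventricle, against 1.58, 1.4996 and 5.61 in the atrium, a log2 difference of 0.07 ± 0.75 (adjusted p = 1.0). Of the 129 atrial SPTB reads of heart 1 only 49 lay outside the sections that the atrium window shares with the sinoatrial region. Of the 4220 genes tested 0.853% were called, and of the 4 rows 0 were, with 0 at an unadjusted p under 0.05, where 6.09% of all genes were. By limma voom and by limma on log2 values 0 were called and 1 had an unadjusted p under 0.05, beside 8.89% and 8.41% of all genes.

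In the outflow tract SPTB was low, and the globins differed between hearts. The level of SPTB there was 0.222 per 10000 in heart 1 and 0 in hearts 2 and 3, against 1.94, 0.656 and 3.25 in all other sections. The fit gave -6.99 ± 2.46 on the log2 scale (unadjusted p = 0.0254, adjusted p = 0.986), where the median of all genes was -1.01. In heart 2 SPTB was at least 63.3-fold lower, and in heart 3, with 14700 gene reads in the region, at least 1.59-fold. The heart muscle gene myl7 was at 0.414, 0.231 and 108 per 10000 in the same outflow sections and at 44.6, 47.5 and 76.2 in the ventricle. Its part in the low SPTB values was not tested.

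For hbae3 the outflow tract had 11.7, 0 and 10.9 per 10000, against 6.25, 7.11 and 2.01 in all other sections (log2 difference -1.24 ± 1.93, adjusted p = 0.999). Hearts 1 and 3 were thus higher in the outflow tract, heart 3 on 16 reads, and heart 2 was at least 686-fold lower. Marker levels in these outflow windows also differed between hearts. In heart 3 myl7 stood at 108 per 10000 there, above the 76.2 of its ventricle. In heart 2 krt4, the skin marker with most reads, named after its values were seen, had 4140 of 9668 reads in outflow section 93. Their part in the hbae3 levels was not tested. Heart 1 was also higher in hbae1.2 and hbae1.3, with 1.40 and 3.54 per 10000 in the outflow tract, against 0.301 and 1.26 elsewhere. Heart 2 had 8 and 9 reads of them in the outflow tract and heart 3 had 0, which at its depth there allows up to 2.04 per 10000, more than its level elsewhere. The fits gave -2.58 ± 2.15 and -4.07 ± 2.29 (adjusted p = 0.999 each). Of the 8376 genes tested 0.0119% were called and of the 4 rows 0 were, with 1 at an unadjusted p under 0.05. By limma voom 2 of the 4, hbae3 and SPTB, were called lower in the outflow tract, at an adjusted p of 0.02 and 0.0402, and with Pearson residuals SPTB was (adjusted p = 0.0466). These tools called 1.13% and 2.30% of all genes.

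The sections placed in the AV canal split the hearts. In heart 2 they include section 74, which had the most reads of the atrial myosin myh6 in that heart. In heart 3 they include section 28, which had the most reads of the ventricular myosin vmhc, 10114 of 20310. The placement of these 2 sections was not tested. The level of hbae3 was 0.0306, 51.2 and 0.00612 per 10000 in the canal of hearts 1, 2 and 3, against 11.9, 1.41 and 1.09 in the chambers, so that the canal was 36.2 times the chambers in heart 2 and 0.00257 and 0.00564 times in hearts 1 and 3. The fit gave -5.63 ± 0.68 (SE of the fit, unadjusted p = 7.06e-05, adjusted p = 0.128). This SE leaves out the disagreement between the hearts, whose ratios ran from 0.00257 to 36.2. Without the heart as a block it gave 1.21, and by limma voom 0.67, so the direction depended on the model. With total gene reads in place of TMM factors it was -5.87 (adjusted p = 4.52e-08). Without heart 2, the heart that runs the other way, it was -7.82 (adjusted p = 1.46e-16).

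The other members were also uneven in the canal. The levels of hbae1.3 were 0.0204, 14.3 and 0.521 per 10000 in the canal, against 2.35, 0.173 and 0.283 in the chambers (log2 difference 1.08 ± 0.89, adjusted p = 0.999). Those of hbae1.2 were 0, 4.13 and 0.404 in the canal, against 0.577, 0 and 0.0446 in the chambers (3.14 ± 1.62, adjusted p = 0.999), so heart 1 ran opposite to hearts 2 and 3. SPTB was at 2.27, 2.06 and 2.96 in the canal, against 1.70, 1.05 and 5.27 in the chambers (0.24 ± 0.60, adjusted p = 0.999), and its spread over the canals of the hearts (2.43 ± 0.471, SD, n = 3) was the smallest of any region with reads in every heart, as measured against its mean. Of the 5450 genes tested 0.0183% were called and of the 4 rows 0 were, with 1 at an unadjusted p under 0.05. By limma voom and limma on log2 values none was, also at an unadjusted p under 0.05. With Pearson residuals hbae3 was called (adjusted p = 5.86e-07, 0.128% of all genes called), as it was without the most abundant row (1.65e-06) and with no filter on low counts (1.13e-06).

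The sinoatrial region had 0 reads of hbae3 in each of the 3 hearts. All other sections had 8.33, 3.37 and 2.11 per 10000. With a floor of 3 reads, which takes reads as independent, hbae3 was at least 106-fold, 32.8-fold and 4.02-fold lower in the sinoatrial region. The fit gave -13.27 ± 4.01 (adjusted p = 0.0037), a value that rests on the prior count, where the median over all genes was -3.10. Of the 6225 genes tested 0.0964% were called, and hbae3 was the 1 of the 4 rows that passed. All 6 genes called were lower in the sinoatrial region and 0 were higher. With 0 reads in the region, hbae3 passed the filter on low counts through the other sections alone. It could therefore only be called lower. In this comparison hbae1.2 also had 0 reads in the sinoatrial region of each heart, against 360, 134 and 87 in the rest (adjusted p = 0.64, and 0.000921 by limma on log2 values, which called 16.2% of all genes), and hbae1.3 had 0, 8 and 0, against 1122, 454 and 240 (adjusted p = 0.64).

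This call depended on where the region was taken to end and on single hearts. The section of heart 3 with 406 reads of hbae3 was placed at 39.8 on the scale of heart 1, next to the last section of the region, 39, and heart 2 had 17 reads past the region. With the hearts placed by their first and last sections the difference was -3.45 (adjusted p = 0.587). The adjusted p was 0.112 with no block for the heart, 0.998 without heart 1 and 0.998 without heart 2. It was 2.51e-20 without heart 3, 0.00286 with spike-in reads as library size and 0.0491 by limma voom. The sinoatrial windows held 381483, 292171 and 57203 gene reads. SPTB was read there at 2.10, 1.57 and 0.175 per 10000, against 1.41, 0.218 and 3.30 in the rest, a log2 difference of -0.47 ± 2.22 (adjusted p = 0.951).

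The wider list of red cell genes gave no further call. Of 59 rows named by the list 41 had reads, and 15, 24, 18 and 20 were tested in the comparisons of ventricle, outflow tract, AV canal and sinoatrial region. None was called in the ventricle, outflow tract and AV canal comparisons, and hbae3 was the 1 called in the sinoatrial region, lower there. The median log2 differences of the list were 0.77, -2.62, -0.39 and -3.31, beside 0.56, -1.01, -0.07 and -3.10 over all genes tested. Within the list the globins had the lowest medians in the sinoatrial region, at -10.18 over 6 genes, and haem and iron genes stood at -2.18 over 7. The globin value includes genes with 0 reads in the region, whose fitted differences are no bounds.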

How the data were processed

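The authors dissected 3 wild-type hearts, sectioned them and sequenced CEL-seq libraries (Illumina NextSeq, paired ends). They aligned the reads to Zv9, with BWA 0.6.2 named in the processing notes, and counted them as in an earlier tomo-seq study they cite. The deposited values are whole-number counts of reads per gene and section, not normalized, with spike-ins as separate rows, which were left out of totals. In heart 1, columns 17 to 24 were put in the order given in the labels. The 171 columns outside the tissue sections were not used. The tables hold 16023 gene IDs, of which 12905 have a symbol in the name table. The members and lists were chosen with earlier results of these data known.

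Hearts 2 and 3 were placed on heart 1 by a straight line through the medians of vmhc and myh6, weighted by reads per 10000 (16 and 30 in heart 1, 83 and 65 in heart 2, 31 and 21 in heart 3). Counts were summed by region and heart. The test was a negative binomial quasi-likelihood model with TMM factors, heart as a block, deviance-based spread squeezed by limma 3.58.1 in R 4.3.3, and Benjamini-Hochberg adjustment. Genes needed about 10 reads at the median depth in 3 samples and 15 in all. It was coded in base R and tested on simulated data, in place of edgeR, which was planned but was not run. In the simulation all genes had the same spread, and a changed gene changed alike in each heart. It therefore could not show how the test treats a gene that runs opposite ways between hearts. The deviance was taken in place of Pearson residuals after results were seen. Both regions come from the same animal, so the block follows from the design. Genes named are the members, the other globins, the 4 red cell genes with most reads, the 10 genes most like the summed globins, and landmarks; others are said to be chosen after their values were seen. No sequences are given. Alternatives were other scalings, filters, placements and tools, and leaving out each heart. The floor for a count of 0 was 3 reads per heart, which takes reads as independent.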

Additional observations from a re-analysis of the deposited data

How the results depend on the processing

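With 3 hearts and few globin sections, the counts of called genes and the members' directions moved with many settings, and the causes were not tested. The number of genes called between ventricle and atrium was 36 as reported. It was 407 with spike-in reads as library size, 7 by limma on log2 values, 3 with no replicate block and 5 with narrow windows. With the sections of heart 1 as samples, 270 genes were higher and 181 lower at an adjusted p under 0.05. By another rule, an absolute log2 difference above 2 and an unadjusted p under 0.05, that fit gave 2011. In fits chosen after seeing the data the number was 68 with Pearson residuals and 14 with medians weighted by raw reads. Leaving out 1 heart gave 16 to 34. For the outflow tract, 1 as reported, it was 62 with total gene reads, 0 without the most abundant row, 0 with spike-ins, 0 with no filter, 81 by limma on log2 values, 73 with no replicate block and, chosen after seeing the data, 95 by limma voom, 0 with robust squeezing and 193 with Pearson residuals. Leaving out 1 heart gave 0 to 72. For the AV canal, 1 as reported, it was 4 with total gene reads, 4 without the most abundant row, 4 with no filter, 0 by limma on log2 values, 0 in the deposited order of sections and, chosen after seeing the data, 4 by limma voom, 2 with robust squeezing, 7 with Pearson residuals and 3 with medians weighted by raw reads. Leaving out 1 heart gave 1 to 10. For the sinoatrial region, 6 as reported, it was 20 with spike-ins, 1006 by limma on log2 values, 0 with no replicate block, 24 with relative placement and, chosen after seeing the data, 3 by limma voom, 12 with Pearson residuals and 48 with medians weighted by raw reads. Leaving out 1 heart gave 1 to 128.

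Directions turned in 22 fits of single members. In 227 the direction and the call stayed the same, in 12 a call was gained and in 4 it was lost. Between ventricle and atrium hbae3 was -2.29 with narrow windows and -5.32 with medians weighted by raw reads, and -2.83 to 4.90 leaving out 1 heart. In the same comparison hbae1.3 was -3.09 with narrow windows, and SPTB was -0.27 with total gene reads, -0.88 with medians weighted by raw reads and -0.17 to 0.24 leaving out 1 heart. In the outflow tract hbae3 was -6.81 to 0.33 leaving out 1 heart, and hbae1.2 was 0.24 with no replicate block. In the AV canal hbae3 was 1.21 with no replicate block and 0.67 by limma voom. There hbae1.2 was -4.66 with relative placement, -5.23 with medians weighted by raw reads and -1.57 to 6.06 leaving out 1 heart. For hbae1.3 the canal gave -0.08 with relative placement and -2.57 to 3.69 leaving out 1 heart, and for SPTB -0.06 with relative placement. In the sinoatrial region SPTB was 0.13 with total gene reads, 0.58 with medians weighted by raw reads and -2.93 to 0.90 leaving out 1 heart. Per spike-in read, the 2 richest sections exceeded the others in member globins by 391-fold, 87.99-fold and 29.4-fold in hearts 1, 2 and 3, against 155-fold, 126-fold and 20.5-fold per gene read. Raw-read medians left heart 2 without outflow sections and gave no value there, and DESeq2 was not run.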
